A study of Mus musculus with 6 samples.

Results

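The cytosolic ribosomal protein genes encode the proteins of the ribosome that works in the cytoplasm. Members were the protein-coding genes of the count table whose symbol was Rpl or Rps followed by a number, then optionally 1 of the letters a, l, x or y and optionally a final digit, together with Rplp0, Rplp1, Rplp2, Rpsa and Fau. The rule found 84 genes among 55573 in the table, 51 of the large (60S) and 33 of the small (40S) subunit, and it used no measured value. RNA was sequenced from 6 mouse samples that carry the label of megakaryocytes, the marrow cells that shed platelets, 3 of them wild-type (WT) and 3 of genotype Abcc4-/-. Abcc4 encodes a membrane transporter of cyclic nucleotides and nucleotide-type drugs. The labels give no treatment, age, strain or sex for either group. The sample titles hold the code CD41, a surface protein of megakaryocytes; the sources used here do not give the method of selection. The series' design text speaks of mice with 3 in each group, and no label names an animal. The p-values set the difference between genotypes against the spread of these samples within a group, and that spread may be partly technical.

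Each ribosome carries a single copy of nearly every one of these proteins, and a free ribosomal protein is usually degraded. Their mRNAs typically begin with a terminal oligopyrimidine (TOP) tract, a run of C and T bases at the 5′ end, through which the kinase complex mTORC1 and the binding protein LARP1 control their translation and stability. In people, loss of 1 copy of any of several of them causes Diamond-Blackfan anaemia, a failure of red cell formation in the marrow.

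To show what the members' starts look like, 30 bases around the RefSeq transcription start (15 before, 15 after; build GRCm38.p6) are printed here, with the longest run of C and T in capitals. Fau, Rpl7a (the longest found), Rpl35a and Rps15a carry long runs near the listed start, and Rpl10 has nearly none there. Rps27l, Rpl22l1 and Rpl7l1 are diverged copies of Rps27, Rpl22 and Rpl7 whose levels are described below.
Fau: tgcgcgcccccaCTTCTTCCTCTTTCTTga
Rpl7a: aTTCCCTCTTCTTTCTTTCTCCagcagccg
Rpl35a: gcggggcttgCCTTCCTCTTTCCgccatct
Rps15a: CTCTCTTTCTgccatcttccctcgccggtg
Rpl10: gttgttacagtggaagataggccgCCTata
Rps27l: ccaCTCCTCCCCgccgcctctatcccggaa
Rpl22l1: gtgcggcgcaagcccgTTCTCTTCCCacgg
Rpl7l1: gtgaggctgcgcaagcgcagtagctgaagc
The windows lie at chr19:6057932-6057961 (Fau, plus strand), chr2:26910792-26910821 (Rpl7a, plus), chr16:33056467-33056496 (Rpl35a, plus), chr7:118116133-118116162 (Rps15a, minus), chrX:74270801-74270830 (Rpl10, plus), chr9:66946071-66946100 (Rps27l, plus), chr3:28805493-28805522 (Rpl22l1, plus) and chr17:46782642-46782671 (Rpl7l1, minus). The longest run within 20 bases of the start was 16 bases in Fau, 21 in Rpl7a, 13 in Rpl35a and 10 in Rps15a. It was 9 in Rps27l, 10 in Rpl22l1 and 3 each in Rpl7l1 and Rpl10; the run of Rpl7l1 falls outside the printed bases. The RefSeq promoter table held 63 of the 84 members. A run of at least 8 C or T bases, read on the strand with the sequence of the mRNA, was sought within 20 bases of a listed start. It was present in 31 of the 63 (49.2%), against 18.4% of the 27025 genes in the table. In the table's full window, 250 bases before to 50 after the start and both strands searched, CCGGAA stood in 35 members (55.6%) against 16.7% of all genes, AAGATGG in 11 (17.5%) against 7.28%, and TATAAA in 7 (11.1%) against 15.7%. These counts describe letters in a window and say nothing of which factor binds there. Runs were sought on both sides of the listed start, so a run need not lie in the mRNA. Those of Rps15a and Rps27l lie wholly before the listed start. Where transcription starts in these samples was not measured, so the runs do not show which members carry a TOP tract.

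Depth ranged from 50440283 to 55123551 counts for the WT libraries and from 67009967 to 99294510 for the Abcc4-/- libraries, and libraries of a group differed beyond sampling noise (smallest chi-square per degree of freedom 11.6). In WT libraries Abcc4 stood at 74.2, 71.8 and 75.7 CPM (a gene's counts relative to the scaled library total), and Abcc4-/- libraries gave 60.1, 60.5 and 62.3 CPM. The Abcc4-/- mean was 82.5% of the WT mean (log2 fold change -0.28, SE 0.05; edgeR, adjusted p = 0.0026), and since counts over the whole gene do not single out a deleted part, they do not check the genotype. A list of 14 megakaryocyte markers took 0.0860% to 0.124% of WT counts and 0.0307% to 0.0377% of Abcc4-/- counts, with 10 called lower and 1 higher. A list of 13 neutrophil markers took between 2.37% and 3.07% in WT and between 4.18% and 4.37% in Abcc4-/-, with 9 called higher and 1 lower, so neutrophil markers took more counts than megakaryocyte markers in every library. Itga2b, which encodes CD41, fell from 91.9 to 53.9 mean TPM (log2 fold change of counts -0.72; edgeR, adjusted p = 0.0106). Markers of B cells (7 of 10) and of T and NK cells (7 of 9) were called higher only. Those of stem and progenitor cells (6 of 7), monocytes and macrophages (3 of 10) and mast cells, basophils and eosinophils (3 of 6) were called lower only. Of 9 erythroid markers, 2 were called higher. Over all genes tested, 17.3% were called, 8.61% higher and 8.68% lower, and lists with few calls should be read beside these shares. No marker was at 0 in all libraries. In these bulk samples fewer cells of a type and less RNA per cell cannot be told apart, and the part of cell composition in the ribosomal protein values below was not tested.

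Ribosomal protein mRNAs were among the most abundant transcripts of these samples. The members took 5.29%, 5.57% and 4.91% of all gene counts in WT libraries 1, 2 and 3, and 5.30%, 5.20% and 4.91% in Abcc4-/- libraries 1, 2 and 3. The groups overlapped, with means of 5.26% ± 0.334 in WT and 5.14% ± 0.205 in Abcc4-/- (SD, n = 3). Of the 84 members, 83 passed the filter on low counts; Rpl10l, a testis-enriched copy of Rpl10, had 0 counts in every library, where 3 counts would correspond to between 0.0304 and 0.0591 CPM. Leaving out the diverged copies, 78 members remained. On the TPM scale, which divides by transcript length, all 78 were among the 300 genes with the highest mean, 76 among the first 200 and 48 among the first 100. Their mean TPM ran from 614 (Rpl35, at the exit of the peptide tunnel) to 4353 (Rps29, a small zinc-binding protein of the 40S head), a 7.09-fold range. Rplp1, a stalk protein, followed Rps29 with a mean TPM of 3787, and Rpl14 and Rpl24 were next to Rpl35 with 731 and 743. The 32 small-subunit genes had a median of 2022 TPM (1041 to 4353), and the 46 large-subunit genes a median of 1341 TPM (614 to 3787). Across the 78 genes the order of levels was nearly the same in both genotypes (Spearman's rho 0.996 on TPM; genes are not independent replicates). The diverged copies stood below all 78, with mean TPM of 325 for Rpl22l1, 178 for Rps27l, 58.1 for Rpl7l1, 1.36 for Rpl3l and 0.892 for Rpl39l.

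On the count scale, 1 of the 83 members measured differed between the genotypes, the diverged copy Rps27l, which was higher in Abcc4-/-; 0 members were lower. Over all 16493 genes tested, 17.3% were called (edgeR's quasi-likelihood test, Benjamini-Hochberg adjusted p below 0.05), 8.61% higher and 8.68% lower. On this scale the members' differences were small. The median log2 fold change was -0.02 for members against 0.0009 for all genes, and the median size of change regardless of sign was 0.03 against 0.13. The median SE was 0.07 for the members and 0.08 for all genes. The plot of fold changes by subunit shows the members by their fold change.

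Among the 78 members other than the diverged copies, 0 were called and 0 had an unadjusted p under 0.05 in edgeR (smallest adjusted p = 0.182), and DESeq2 also called 0 of them. Their log2 fold changes ran from -0.15 (Rpl13) to 0.06 (Rps15a). A p above the threshold does not show equal levels, so the intervals matter: the 95% interval lay within -0.2 to 0.2 on the log2 scale for 68 of the 78, within -0.25 to 0.25 for 77, and within a 1.5-fold change in either direction for 78. The member left over at -0.25 to 0.25 was Rpl13, a surface protein of the 60S subunit. Rpl13 measured 726, 786 and 665 CPM in WT and 672, 680 and 615 CPM in Abcc4-/-, so the groups overlapped (log2 fold change -0.15, 95% interval -0.30 to 0.0072; edgeR, adjusted p = 0.182).

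In the large subunit, 0 of 50 measured genes were called, and log2 fold changes had a median of -0.03. The lowest after Rpl13 and the copies was Rpl3, a core protein beside the peptidyl transferase centre, with means of 1146 ± 53.5 CPM (WT) and 1079 ± 44.1 CPM (Abcc4-/-; SD, n = 3; log2 fold change -0.09, SE 0.06). At the other end, Rpl35a, mutated in some cases of Diamond-Blackfan anaemia, measured 394, 427 and 380 CPM in the WT group and 439, 412 and 388 CPM in the Abcc4-/- group (log2 fold change 0.05, SE 0.06; edgeR, adjusted p = 0.685). The stalk proteins, which recruit elongation factors, lay at -0.04 (Rplp0), 0.0032 (Rplp1) and -0.05 (Rplp2). Rpl5 and Rpl11, which join the 5S rRNA and can bind the p53 ligase Mdm2 when free, lay at -0.01 and 0.00071. Of 8 proteins around the exit of the peptide tunnel, 0 were called, with a median of -0.01. Each of these stalk and 5S-binding values was smaller than its SE.

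In the small subunit, 1 of 33 measured genes was called, and the median log2 fold change was -0.0056. The lowest was Rps2, near the mRNA entry channel, at 1109, 1087 and 963 CPM in WT and 1030, 989 and 951 CPM in Abcc4-/- (log2 fold change -0.09, SE 0.07; edgeR, adjusted p = 0.405). Rps29 and Rpsa, the latter also known as the laminin receptor precursor, followed at -0.07 and -0.07. The highest after Rps27l was Rps15a, at 484, 483 and 448 CPM in WT and 524, 495 and 457 CPM in Abcc4-/- (log2 fold change 0.06, SE 0.06; edgeR, adjusted p = 0.558). All 4 of these genes overlapped between the groups. Rps27a and Fau, made as fusions with ubiquitin or a ubiquitin-like protein, lay at 0.05 and 0.01. Ribosomal genes outside the rule stood close to 0: Rack1, a 40S scaffold protein, at -0.05 (adjusted p = 0.616) and Rpl36al, a copy of Rpl36a, at 0.0091 (adjusted p = 0.948, edgeR). Among 19 members that are Diamond-Blackfan anaemia genes in people, 0 were called, with a median log2 fold change of -0.01 (-0.07 to 0.06).

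Rps27l was the member that rose. It encodes a close relative of Rps27 (eS27) and is known as a p53 target. Its gene lies at chr9:66946086-66949516 on the plus strand (GRCm38). It measured 39.6, 39.7 and 36.9 CPM in WT and 46.8, 44.1 and 43.1 CPM in Abcc4-/-, so every Abcc4-/- library lay above every WT library. The difference was 15.3% (95% interval 6.06% to 25.3%; log2 fold change 0.21, SE 0.05; edgeR, adjusted p = 0.0247). CPM values did not overlap and were higher in Abcc4-/- for 2 members and lower for 0, against 18.4% and 18.3% of all genes. The call depended on single libraries: the adjusted p was 0.0545 without WT replicate 3, 0.0849 without Abcc4-/- replicate 1 and 0.0682 without Abcc4-/- replicate 2, with log2 fold changes of 0.17, 0.17 and 0.22. On the TPM scale its level was 173, 168 and 169 in WT and 191, 184 and 184 in Abcc4-/-, again without overlap (difference in log2(TPM + 1) 0.13, SE 0.04; limma, adjusted p = 0.062). The neutrophil and lymphocyte markers were higher in the same 3 libraries, and their part in this difference was not tested. Its parent gene Rps27 (chr3:90212522-90213651, minus strand) measured 404, 425 and 390 CPM in WT and 441, 423 and 386 CPM in Abcc4-/-, with overlap (log2 fold change 0.04, SE 0.06; edgeR, adjusted p = 0.744). Rps27rt, a further Rps27 copy outside the rule, lay at 0.04 (adjusted p = 0.65).

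The coding sequences of the pair, from the GENCODE M21 transcripts, show how far reads of these genes can be told apart; capitals mark the bases that differ.
Rps27: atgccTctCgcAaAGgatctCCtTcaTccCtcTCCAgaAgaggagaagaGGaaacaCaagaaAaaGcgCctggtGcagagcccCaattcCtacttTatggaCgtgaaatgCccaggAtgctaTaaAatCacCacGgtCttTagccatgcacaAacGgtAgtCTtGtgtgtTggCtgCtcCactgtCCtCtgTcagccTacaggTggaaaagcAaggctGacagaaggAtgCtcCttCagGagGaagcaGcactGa
Rps27l: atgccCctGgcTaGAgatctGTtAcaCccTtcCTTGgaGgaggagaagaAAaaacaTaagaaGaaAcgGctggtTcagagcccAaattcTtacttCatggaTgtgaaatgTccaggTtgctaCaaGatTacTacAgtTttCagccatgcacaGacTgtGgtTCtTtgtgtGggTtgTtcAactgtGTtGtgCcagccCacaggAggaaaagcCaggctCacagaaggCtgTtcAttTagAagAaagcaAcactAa
Both are 255 bases long and differ at 61 positions with no gap (76.1% identity), and the longest identical stretch they share is 11 bases. The other copies were less or more alike to their parents: the longest shared stretch was 10 bases for Rpl7 and Rpl7l1 (54.5% identity), 22 for Rpl3 and Rpl3l (73.3%), 26 for Rpl22 and Rpl22l1 (67.5%) and 38 for Rpl39 and Rpl39l (85.3%). Rpl10 and Rpl10l share 23 bases in a row (84.8%).

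The other diverged copies did not pass the count test. Rpl7l1, a relative of Rpl7 at chr17:46773907-46782672 (minus strand), measured 80.9, 83.1 and 78.6 CPM in WT and 92.2, 87.8 and 89.3 CPM in Abcc4-/-. Its groups did not overlap, and its adjusted p was just above the threshold (log2 fold change 0.15, SE 0.05; edgeR, adjusted p = 0.0527), while DESeq2 called it (adjusted p = 0.0354). On the TPM scale Rpl7l1 did not separate the groups, with 57.8, 57.4 and 58.3 TPM in WT and 60.5, 56.9 and 57.6 TPM in Abcc4-/- (limma, adjusted p = 0.885). Rpl22l1, a copy of Rpl22 at chr3:28805436-28807424 (plus strand), measured 90.1, 99.2 and 90.4 CPM in WT and 93.9, 83.1 and 82.5 CPM in Abcc4-/-, with overlap (log2 fold change -0.11, SE 0.06; edgeR, adjusted p = 0.271). Rpl39l, a copy of Rpl39 known from testis (chr16:10170226-10174911, plus strand), was near the detection limit at 0.455, 0.473 and 0.294 CPM in WT and 0.332, 0.182 and 0.149 CPM in Abcc4-/-. Its log2 fold change was -0.91 with an SE of 0.36 (edgeR, adjusted p = 0.106). Rpl3l, the heart and skeletal muscle form of Rpl3 (chr17:24727820-24736143, plus strand), measured 0.928, 1.04 and 0.864 CPM in WT and 1.19, 1.27 and 0.941 CPM in Abcc4-/- (log2 fold change 0.26, SE 0.19; edgeR, adjusted p = 0.378). The plot of the copies by library shows the separation of Rps27l and Rpl7l1 and the overlap of the others.

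**Figure D1:**
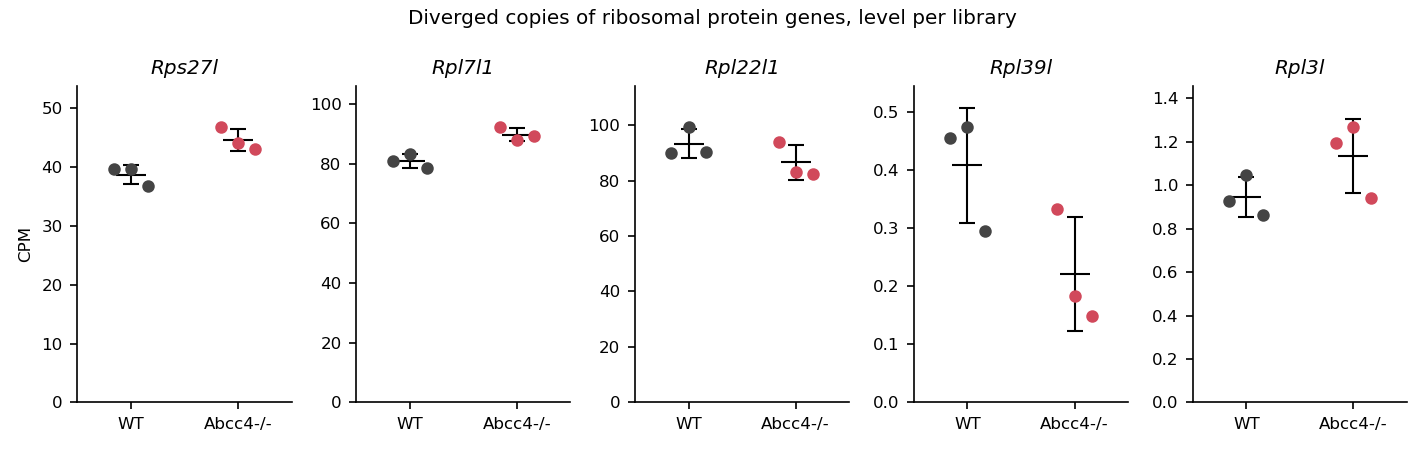
Level of 5 diverged copies in CPM (vertical axis, from 0) in each WT (grey) and Abcc4-/- (red) library; points are libraries in replicate order, bars the mean and SD (n = 3). Rps27l (36.9 to 39.7 against 43.1 to 46.8) and Rpl7l1 (78.6 to 83.1 against 87.8 to 92.2) do not overlap between the groups, whereas Rpl22l1, Rpl39l and Rpl3l do.

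On the TPM scale the same members looked lower in Abcc4-/-, and large-subunit genes made up the calls. With limma on log2(TPM + 1), 5 of 83 members were called lower and 0 higher, where 12.8% of all genes were called, 3.63% higher and 9.17% lower. The 5 were Rpl10, Rpl13, Rpl3, Rpl6 and the low copy Rpl39l, all of the large subunit. An unadjusted p under 0.05 (limma) was found for 31 of the 83 members and for 5078 of all 16493 genes. The TPM values did not overlap and were lower in Abcc4-/- for 35 members, 26 of the large and 9 of the small subunit, and higher for 1, against 27.8% and 9.46% of all genes. The difference in log2(TPM + 1) was below 0 in 80 of the 83 members and in 78 of the 78 other than the diverged copies, whereas on the count scale 56 of 83 were below 0. The median over all genes tested was itself -0.06 on this scale.

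Rpl3 measured 1377, 1364 and 1329 TPM in WT and 1211, 1217 and 1172 TPM in Abcc4-/- (difference in log2(TPM + 1) -0.18, SE 0.04; limma, adjusted p = 0.0209). Rpl10, which completes the 60S subunit late in its maturation, measured 2556, 2516 and 2486 TPM in WT and 2277, 2283 and 2236 TPM in Abcc4-/- (difference -0.15, SE 0.03; limma, adjusted p = 0.0264). Rpl13 measured 1656, 1756 and 1585 TPM in WT and 1434, 1484 and 1375 TPM in Abcc4-/- (difference -0.22, SE 0.05; limma, adjusted p = 0.0275). All 3 genes separated the groups on TPM and overlapped on CPM. Rpl6, a 60S surface protein, stood at 1174, 1220 and 1151 TPM in WT and 1069, 1075 and 1045 TPM in Abcc4-/- (difference -0.15, SE 0.04; limma, adjusted p = 0.0397), and Rpl39l at 1.36, 1.32 and 0.92 TPM and 0.82, 0.53 and 0.40 TPM (difference -0.48, SE 0.12; limma, adjusted p = 0.0367).

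The shift between the scales was alike across members other than the diverged copies. The TPM difference minus the count fold change had a median of -0.07 over the 78 members other than the diverged copies (-0.11 to -0.04) and of -0.08 over all 16493 genes; with the copies included it ran from -0.24 to 0.43. Over all genes the shift ran from -3.44 to 8.07, so the median does not describe every gene. Members close to 0 on counts, such as Rps15a, Rps27a and Rpl35a, lay below 0 on TPM. When each library's log2(TPM + 1) was centred on its median over the genes tested, the members' median difference was 0.0006, 42 of 83 lay above 0, and Rps27l was the 1 member called (higher; limma, adjusted p = 0.0382). Over all genes the same centring changed the calls from 599 higher and 1512 lower to 1134 higher and 856 lower, beside 1420 and 1432 on counts. The TPM calls were also sensitive to single libraries: 0 members were called without WT replicate 1, without Abcc4-/- replicate 2 or without Abcc4-/- replicate 3, 1 without WT replicate 2 (Rpl3), 2 without Abcc4-/- replicate 1 (Rpl22l1 and Rpl39l), and 7 were called without WT replicate 3, the same 5 with Rps2 and Rpsa.

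**Figure D2:**
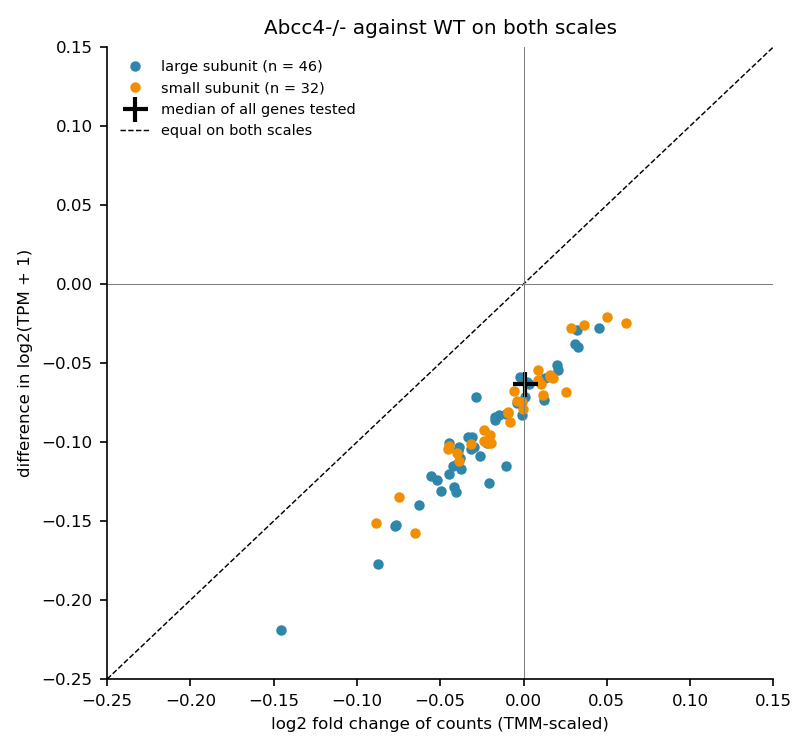
Log2 fold change of TMM-scaled counts (horizontal) against the difference in log2(TPM + 1) (vertical), Abcc4-/- against WT, for 46 large-subunit and 32 small-subunit genes other than the diverged copies; the cross is the median of all genes tested and the dashed line marks equal values. All points lie below the line by 0.04 to 0.11 and the cross lies below it too.

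Large and small subunits differed little from each other. The median log2 fold change was -0.03 for the large and -0.0056 for the small subunit on counts, a gap of -0.02, and -0.10 and -0.08 on log2(TPM + 1), again a gap of -0.02. The middle range of the large subunit without its copies was -0.04 to 0.0002 and that of the small subunit -0.03 to 0.01 on counts. The ratio of summed large-subunit to summed small-subunit TPM was 1.056, 1.061 and 1.064 in WT and 1.041, 1.049 and 1.049 in Abcc4-/-, so the groups did not overlap (1.060 ± 0.0040 and 1.046 ± 0.0046, SD, n = 3). The same ratio on counts was 1.206, 1.205 and 1.223 in WT and 1.190, 1.197 and 1.197 in Abcc4-/-, also without overlap. The Abcc4-/- mean ratio was 0.987 times the WT mean on TPM and 0.986 times on counts. This is a sum over chosen members and is given as a description with no test.

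The members moved together from library to library, by more than they differed between genotypes. On log2 CPM, WT replicate 2 stood above the gene's mean over the 6 libraries by a median of 0.10 in the large and 0.09 in the small subunit, and Abcc4-/- replicate 1 by 0.05 in each. WT replicate 3 stood lower, at -0.09 and -0.10, and Abcc4-/- replicate 3 at -0.09 and -0.08. WT replicate 2 was the highest library for 61 of 83 members, and the lowest was WT replicate 3 for 50 and Abcc4-/- replicate 3 for 33. Each genotype thus held a library with high and a library with low values of both subunits. The direction of the members' small differences followed these libraries: 27 of 83 log2 fold changes were above 0 with all libraries, 66 without WT replicate 2, 60 without Abcc4-/- replicate 3, 6 without WT replicate 3 and 11 without Abcc4-/- replicate 1. On TPM, the order differed, and Abcc4-/- replicate 3 was the lowest library for 75 members. The members' share of all TPM was 14.4%, 14.8% and 13.8% in WT and 13.67%, 13.70% and 13.03% in Abcc4-/-, with WT replicate 3 just above the highest Abcc4-/- library. The group means were 14.3% ± 0.504 and 13.5% ± 0.378 (SD, n = 3).

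**Figure D3:**
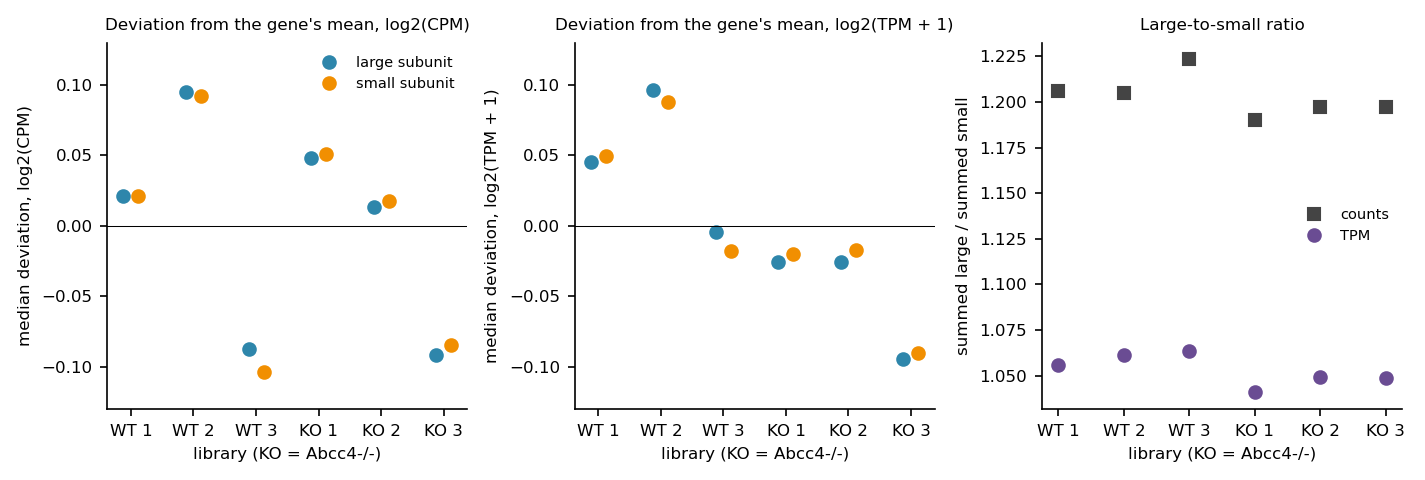
Left and middle, median deviation of large-subunit (blue) and small-subunit (orange) genes from each gene's mean over the 6 libraries, on log2(CPM) and log2(TPM + 1); right, ratio of summed large-subunit to summed small-subunit values on counts (squares) and TPM (circles), on an axis that does not start at 0. Both subunits move together in each library, with replicates 3 of both genotypes low on CPM, and the ratio is 1.190 to 1.197 in Abcc4-/- against 1.205 to 1.223 in WT on counts.

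The genes that surround the ribosomal proteins in ribosome production showed few calls, where 17.3% of all genes were called, 8.61% higher and 8.68% lower. Of 11 genes of RNA polymerase I and its factors, which transcribe the ribosomal RNA, 1 was called: Polr1a, the largest subunit, rose from 70.3 ± 2.0 to 79.2 ± 1.70 CPM (SD, n = 3; log2 fold change 0.17, SE 0.05; edgeR, adjusted p = 0.0286). It was not called without WT replicate 1 or 2 or without Abcc4-/- replicate 2 or 3 (adjusted p = 0.0809 to 0.119), nor on log2(TPM + 1), where the difference was 0.21 (limma, adjusted p = 0.167). Of 9 proteins of the small nucleolar particles that modify rRNA, 0 were called, and of 27 assembly factors of the 60S subunit 0 were called, with 0 and 2 at an unadjusted p under 0.05. The 60S factors closest to a call were Brix1 (log2 fold change 0.16, adjusted p = 0.0949, and -0.01 on log2(TPM + 1)) and Bccip (0.15, adjusted p = 0.107, edgeR). Of 27 assembly factors of the 40S subunit, 1 was called: Tsr2, the chaperone that delivers Rps26, fell from 17.5 ± 0.0924 to 14.9 ± 0.945 CPM (SD, n = 3; log2 fold change -0.23, SE 0.06; edgeR, adjusted p = 0.0288). Leaving out any single library but Abcc4-/- replicate 1 ended this call (adjusted p = 0.0545 to 0.14), as did log2(TPM + 1), where the difference was -0.30 (limma, adjusted p = 0.0612). Rps26 itself had a log2 fold change of -0.04. The medians of these lists were 0.0014, 0.06, 0.03 and -0.03, beside 0.0009 for all genes.

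Among 17 other mRNAs known to carry a TOP tract, 14 had a log2 fold change below 0. Their median was -0.05, against -0.02 for the ribosomal protein members. On counts 2 were called lower and 0 higher, where 17.3% of all genes were called and 8.68% were called lower. CPM values did not overlap and were lower in Abcc4-/- for 6 and higher for 0, against 18.3% and 18.4% of all genes. On log2(TPM + 1) all 17 lay below 0, with a median of -0.12 against -0.06 for all genes. There 6 were called lower and 0 higher (limma), where 9.17% and 3.63% of all genes were. Vim, the intermediate filament protein of many blood cells, fell from 1534 ± 32.4 to 1272 ± 29.1 CPM (SD, n = 3; log2 fold change -0.27, SE 0.06; edgeR, adjusted p = 0.0065). Pabpc1, the poly(A)-binding protein, fell from 1539 ± 42.4 to 1345 ± 21.3 CPM (log2 fold change -0.19, SE 0.06; edgeR, adjusted p = 0.0325), a call that was kept without WT replicate 3 and lost without any other single library (adjusted p = 0.06 to 0.112).

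Among 19 regulators of mTORC1 and of TOP mRNAs, 2 were called higher and 2 lower, a number near the 17.3% called among all genes. Mlst8, a subunit of both mTOR complexes, rose from 48.5 ± 2.02 to 63.2 ± 1.77 CPM (SD, n = 3; log2 fold change 0.38, SE 0.05; edgeR, adjusted p = 0.00063). Ddit4, a stress-induced inhibitor of mTORC1, fell from 44.0 ± 8.67 to 17.9 ± 0.922 CPM (log2 fold change -1.29, SE 0.14; edgeR, adjusted p = 0.0017), and Deptor, an inhibitory partner of mTOR, fell from 37.6 ± 3.02 to 28.9 ± 2.33 CPM (log2 fold change -0.38, SE 0.07; edgeR, adjusted p = 0.0057). Sesn1, a p53-responsive inhibitor of mTORC1 named after its value was seen, lay at 0.19 (edgeR, adjusted p = 0.0422; limma on TPM, 0.184). In the list of the ribosomal protein, Mdm2 and p53 axis, 1 of 8 genes was called: Cdkn1a, the p53-induced cell cycle inhibitor, fell from 80.7 ± 9.53 to 23.4 ± 2.53 CPM (log2 fold change -1.79, SE 0.11; edgeR, adjusted p = 3.1e-05). Other p53 targets of that list did not pass the test, Ccng1 at 0.13 (adjusted p = 0.123) and Phlda3 at 0.45 (adjusted p = 0.238, edgeR).

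The mitochondrial ribosomal proteins, encoded in the nucleus and used by the separate ribosome of mitochondria, gave a comparison set of 78 genes. Of these, 7 were called higher and 0 lower on counts, 69 of 78 lay above 0, and the median log2 fold change was 0.07, against -0.02 for the cytosolic members. Mrpl49 rose from 27.3 ± 1.40 to 33.6 ± 2.11 CPM (SD, n = 3; log2 fold change 0.30, SE 0.06; edgeR, adjusted p = 0.0085) and Mrpl33 from 88.2 ± 6.22 to 104 ± 2.62 CPM (log2 fold change 0.25, SE 0.06; edgeR, adjusted p = 0.0138); Mrpl33 was not called without Abcc4-/- replicate 1 (adjusted p = 0.0579). On log2(TPM + 1) the list's median was -0.0044, against -0.06 for all genes, with 36 of 78 above 0 and 2 called higher. The 7 calls among 78 genes were close to the 8.61% of all genes called higher on counts. The plot of gene lists sets these quartiles side by side.

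**Figure D4:**
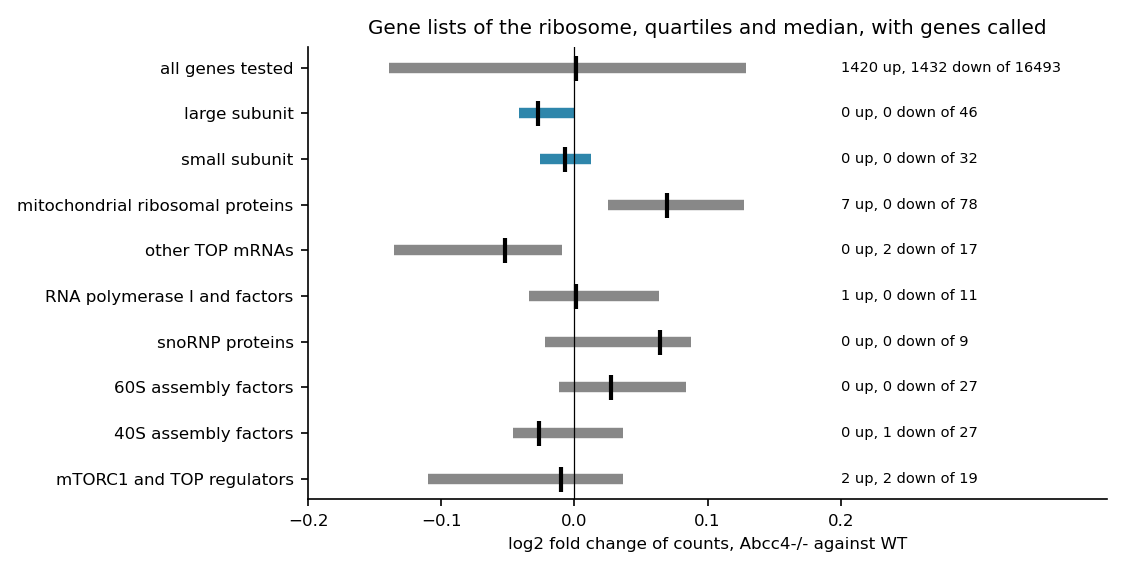
Log2 fold change of counts (Abcc4-/- against WT, horizontal axis) for gene lists around the ribosome: bars span the lower to upper quartile, ticks are medians, and the text gives genes called by edgeR; subunits are shown without the diverged copies. The 2 subunits (blue) have narrower bars than all genes tested, with 0 genes called.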

How the data were processed

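RSEM 1.3.1, STAR 2.7 and mm10 are named in the submitters' processing notes; which annotation was counted is not stated there. The authors deposited unnormalized expected counts for each gene and, in a second table, TPM. The kit was stranded and selected mRNA, per the labels' protocols. Of the entries, 55573 were genes; 92 spike-ins at 0 were dropped. In R 4.3.3, edgeR 4.0.16 was run on the rounded counts of all 6 libraries with TMM scaling, genotype as the one term and robust quasi-likelihood tests, on the 16493 genes left by its default filter. The deposited TPM were tested as log2(TPM + 1), which understates changes of low genes, with limma 3.58.1 (trend, robust). P-values were Benjamini-Hochberg adjusted over all genes tested and called below 0.05. SE was the fold change over the root of F, and CPM refers to TMM-scaled totals. The floor of 3 counts covers counting error only. Total counts, which limit precision, are given with the results. Both scripts were tested on simulated data. Gene positions are from GENCODE M21 (GRCm38); starts are from RefSeq; Biopython 1.88 aligned coding sequences, taking the first-numbered transcript and, for a copy, the coding sequence nearest in length.

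The members and lists were chosen with earlier results of these data known. Named genes were Abcc4; called members; the 3 largest and 3 smallest fold changes of each subunit; the 3 highest and lowest levels; the diverged copies; up to 6 members whose call or direction differed between scales; and up to 3 genes of each list by adjusted p. Alternatives were RLE and upper quartile scaling, TMM without the members, DESeq2 1.42.0, no filter, pseudogene counts added, a pseudocount of 0.1, centred TPM, a replicate block and each library left out. Leaving out the copies, or both replicates 3 together, was chosen after seeing the data. Single values of some genes are not reported here; all genes entered the fits and counts.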

Additional observations from a re-analysis of the deposited data

How the results depend on the processing

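Across RLE and upper quartile scaling, TMM without the members, no filter, added pseudogene counts and centred TPM, 1 member was called, Rps27l. DESeq2 called 2 members (1 of the large subunit), and log2(TPM + 1) called 5, all of the large subunit and 0 of the small. Leaving out 1 library at a time gave 0 to 1 calls (small subunit 0 to 1), and leaving out both replicates 3 gave 0. The gap between the subunit medians ran from -0.021 to -0.0123 over those leave-outs. The 5 TPM calls became 2 with no filter, 1 (higher) after centring and 0 to 7 with 1 library left out; a pseudocount of 0.1 gave 7. With the replicate block, 1 member was called on counts and 8 on TPM. After removal of group means, same-numbered libraries correlated at -0.046, -0.026 and -0.014, and differently numbered ones at -0.060 to 0.085. These values do not show a pairing by number, and with 3 libraries per group they cannot exclude one. The cause of these changes was not tested.

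Signs of differences near 0 were not kept. On log2(TPM + 1) the value was -0.028 for Rpl35a, -0.021 for Rps27a, -0.025 for Rps15a, -0.063 for Rplp1, -0.071 for Rpl11, -0.063 for Fau, -0.040 for Rpl39, -0.038 for Rpl35, -0.053 for Rpl36al and -0.010 for Brix1. With RLE scaling Rpl11 lay at -0.00060, and on centred TPM Rpl22 lay at 0.017. With 1 library left out, log2 fold changes ran from -0.15 to 0.011 for Rps29, -0.00023 to 0.090 for Rps27a, -0.064 to 0.048 for Rplp1, -0.11 to 0.028 for Rplp2, -0.048 to 0.028 for Rpl5, -0.053 to 0.049 for Rpl11, -0.059 to 0.084 for Fau, -0.0074 to 0.088 for Rpl39, -0.019 to 0.090 for Rpl35, -0.078 to 0.025 for Rpl22 and -0.060 to 0.071 for Rpl36al.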

Other observations

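Annotated copies named after members, mostly processed pseudogenes, numbered 303, of which 142 had 0 counts in every library and 74 passed the filter. Together they took 5.22% ± 0.109 of the counts of members and these copies in WT and 5.19% ± 0.0494 in Abcc4-/- (SD, n = 3). The share of reads that RSEM placed on these named copies was thus alike in both groups. Copies under other names, such as Rps27rt, are not in this share. Of the 74, 4 were called, all lower in Abcc4-/-, which is below the 17.3% called and the 8.68% called lower among all genes; they are named here after their values were seen: Rps2-ps10 (log2 fold change -0.19, SE 0.06; edgeR, adjusted p = 0.0447), Rpsa-ps5 (-0.86, adjusted p = 0.0185), Rpl13-ps1 (-1.37, adjusted p = 0.0105) and Rpl10-ps6 (-2.18, adjusted p = 0.0109). Rps2-ps10 is transcribed per its annotated type and held 9.01% of the counts of Rps2 and this copy together. The other 3 called copies held at most 111 expected counts in any library. Some copies that were not called held larger shares. For members called lower on TPM, Rpl10-ps3 held 22.8% of the counts of Rpl10 and this copy, and Rpl3-ps1 14.9% for Rpl3. Counts of such near-identical copies can be split between gene and copy by the estimation, so these values are uncertain. With each member's counts summed with those of its named copies, 1 member was called, Rps27l (log2 fold change 0.20; edgeR, adjusted p = 0.0248).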
